A study of Homo sapiens with 7 samples.

Results

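The genes of cholesterol and fatty acid synthesis, with the factors that control them, were followed in human cardiomyocytes after knockdown of MYH7B. The set was a list of 33 gene symbols, and all 33 were found among the 60234 genes of the deposited table. They were grouped here by role as 6 genes of SREBP control, 7 of the mevalonate steps, 11 of the sterol steps and 9 of fatty acid synthesis. All 33 had a mean of at least 1 TPM (transcript abundance adjusted for length and scaled so that each library totals 1000000), so none was lost to the filter on low values. A further 61 genes of neighbouring steps were followed in separate lists, and pathway genes in none of these lists are not analysed here.

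The cells were cardiomyocytes differentiated from WTC-11, an established human induced pluripotent stem cell line, and poly-A RNA was sequenced. They had matured for 35 days, and every culture received an antisense oligonucleotide (ASO) at 2 uM for 96 h, taken up without a carrier. The control group received a scrambled ASO (3 libraries, the control libraries) and the other group an ASO against MYH7B (4 libraries). The labels name no untreated cells and no second MYH7B ASO, and all libraries come from 1 cell line. The labels do not say whether the libraries of a group came from separate differentiations, so p-values measure the spread between these libraries, which may be technical.

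The values of MYH7B ASO replicate 1 were deposited out of row register, and the comparisons therefore rest on 3 scrambled ASO libraries against MYH7B ASO replicates 2, 3 and 4. Its values after reordering are given beside them. Sequencing depth is unknown, because TPM keeps no record of it. The targeted gene, MYH7B, had 23.0, 36.5 and 25.1 TPM in the control libraries and 9.30, 5.65 and 6.31 TPM in MYH7B ASO replicates 2 to 4. Its log2 fold change was -1.85 (limma, adjusted p = 0.0109), and it was 1.29 TPM in the reordered replicate 1. It missed the limma threshold without MYH7B ASO replicate 4 (adjusted p = 0.0618), with the 7 libraries (0.0525) or with no filter on low values (0.0779). Of 15988 genes tested, 265 were called at an adjusted p under 0.05 in limma, which is 1.66%, with 29 higher and 236 lower with the MYH7B ASO. Rescaling by quantiles changed that split to 55 higher of 257 called, and leaving out any 1 of the 6 libraries left between 53 and 149 called genes. Cardiomyocyte markers summed to 10764 to 11868 TPM in the control libraries and to 8997 to 11253 TPM in MYH7B ASO replicates 2 to 4. Their sum in the reordered replicate 1 was 8131 TPM, below every control library. None of these 10 markers was called in limma. Their median log2 fold change was -0.36, with 7 negative and 3 positive. The groups did not overlap for 5 that were lower and 1 that was higher, beside 14.1% and 7.11% of all tested genes. Markers of fibroblasts and smooth muscle were also present.

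Cells make cholesterol from acetyl-CoA through mevalonate and squalene, and they make fatty acids from acetyl-CoA through malonyl-CoA. Both routes are controlled by the SREBP transcription factors, which are held in the endoplasmic reticulum with SCAP and the INSIG proteins while sterols are plentiful and are cleaved and sent to the nucleus when sterols fall. SREBP-2 is known mainly for the cholesterol genes and the SREBP-1c form for the fatty acid genes. Heart muscle mainly burns fatty acids, and its own synthesis of them is low beside that of liver or fat.

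FASN, the enzyme that assembles palmitate, was the only 1 of the 33 members called in limma, and it rose. FASN had 20.1, 18.7 and 26.8 TPM in the control libraries and 44.9, 48.2 and 43.3 TPM in MYH7B ASO replicates 2 to 4. Every MYH7B ASO library lay well above every scrambled ASO library. The group means were 21.9 ± 4.37 and 45.5 ± 2.49 TPM (SD, n = 3 each). On the log2 scale this is a rise of 1.04 (SE 0.17, 95% interval 0.65 to 1.43, limma adjusted p = 0.0251). FASN ranked 22nd to 25th of the 33 members by level in the scrambled ASO libraries, and 7th to 12th with the MYH7B ASO. One call among 33 members stands against 1.66% of all tested genes called.

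The FASN call depended on the libraries, while its size changed little. Without scrambled ASO replicate 3 it held (log2 fold change 1.19, limma adjusted p = 0.0213). It was lost when either other control library was left out, replicate 1 (limma adjusted p = 0.0854) or replicate 2 (0.0738). It was also lost when any treated library was left out, replicate 2 (limma adjusted p = 0.0939), replicate 3 (0.104) or replicate 4 (0.105). The log2 fold changes in those 5 fits were 0.94 to 1.07. The call was also lost with no filter on low values (limma adjusted p = 0.0944) or without the intensity trend of the variance (0.0695). The reordered replicate 1 had 60.5 TPM of FASN, the highest level of the 7 libraries. Mitochondrially encoded genes took 17.2% of the TPM in that library and 27.4% to 33.6% in the other 6, and it had the fewest genes at 1 TPM or more (14823). A larger share of its TPM thus fell on nuclear genes, and the part of this in its values was not tested. With it included FASN was again called (log2 fold change 1.14, limma adjusted p = 0.0296), beside 1.07% of all tested genes in that 7-library fit. FASN (ENSG00000169710.9) lies on chromosome 17 at positions 82078333 to 82098332, minus strand, in GENCODE 29 on GRCh38, and no other gene with at least 1 TPM overlaps it.

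**Figure D1:**
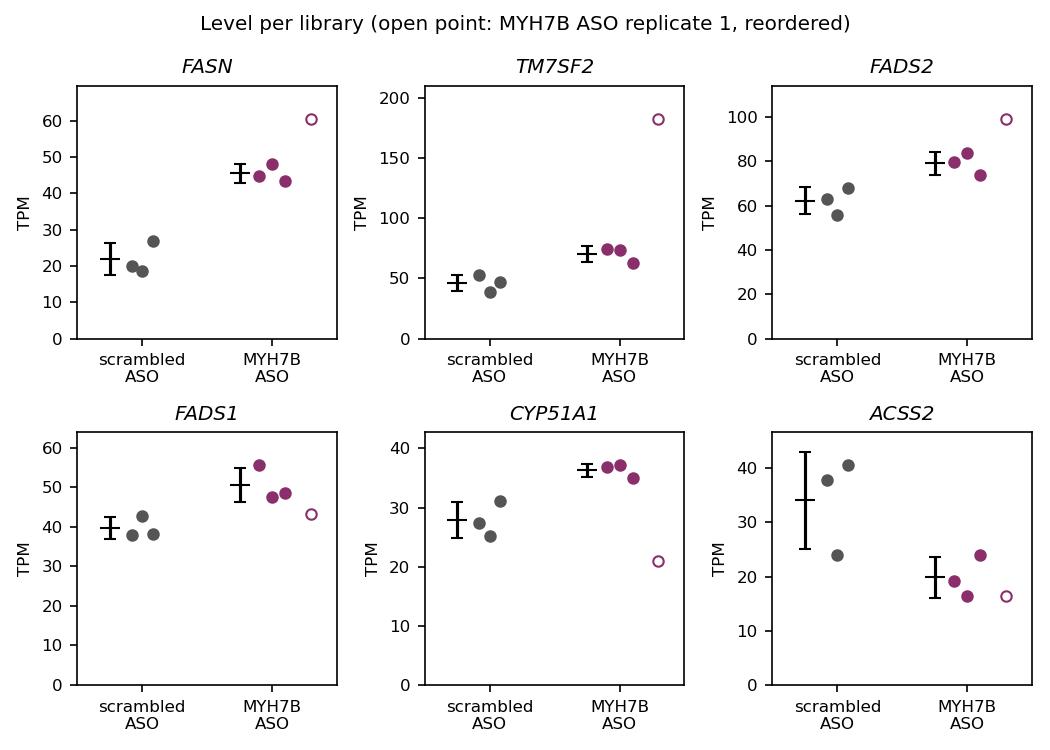
TPM per library (vertical axes, from 0) of 6 lipid synthesis genes in the scrambled ASO group (grey) and the MYH7B ASO group (purple), with the mean and SD of the 3 filled points beside them. FASN separates most widely, at 18.7 to 26.8 against 43.3 to 48.2 TPM. The open point of replicate 1 is far above the others for TM7SF2 and below all scrambled ASO libraries for CYP51A1.

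Markers of other cell types also moved between the same groups. Among the 10 cardiomyocyte markers the authors' deposited table passed 1, RYR2, as lower (-0.84, adjusted p = 0.000232). The 7 fibroblast markers summed to 2874, 3018 and 5162 TPM in the control libraries and to 1709, 2053 and 1332 TPM in MYH7B ASO replicates 2 to 4, with 2 of 7 called lower in limma (COL1A2 and LUM) and none higher. PDGFRA, 1 of the 7, went the other way and passed as higher in the authors' deposited table (0.61, adjusted p = 0.00287), where 4 of the 7 passed as lower. The 4 smooth muscle markers summed to 934 to 1330 TPM against 543 to 723 TPM, with MYH11 called lower. Their sum in the reordered replicate 1 was 1075 TPM, within the scrambled ASO range. CNN1, 1 of the 4, went the other way without passing in the authors' deposited table (0.29, adjusted p = 0.108), where the other 3 passed as lower. The 5 endothelial markers were low, at 17.5 to 21.8 TPM against 11.5 to 17.2 TPM in sum, without overlap. The reordered replicate 1 summed to 24.9 TPM, above every control library. Only 2 of the 5 passed the filter on low values, with 1 positive and 1 negative difference. In the authors' deposited table TEK passed as lower (-0.84, adjusted p = 0.00346) and KDR, at 0.16, did not pass (adjusted p = 0.659). In bulk RNA, fewer cells of a type and less RNA per cell cannot be told apart. In the reordered replicate 1 the fibroblast markers summed to 4051 TPM, within the scrambled ASO range, and FASN was at its highest there. The 4 adipocyte markers summed to at most 1.77 TPM in any library, with CIDEC at 0 in all 6. The 5 hepatocyte markers summed to 4.17 to 6.78 TPM against 10.4 to 15.2 TPM, and to 14.9 TPM in the reordered replicate 1. Of these 5 only APOA1 passed the filter on low values. APOA1 had a log2 fold change of 1.06 and was not called in limma, and it passed as higher in the authors' deposited table (0.93, adjusted p = 0.00103). The part of these markers in the FASN difference was not tested.

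**Figure D2:**
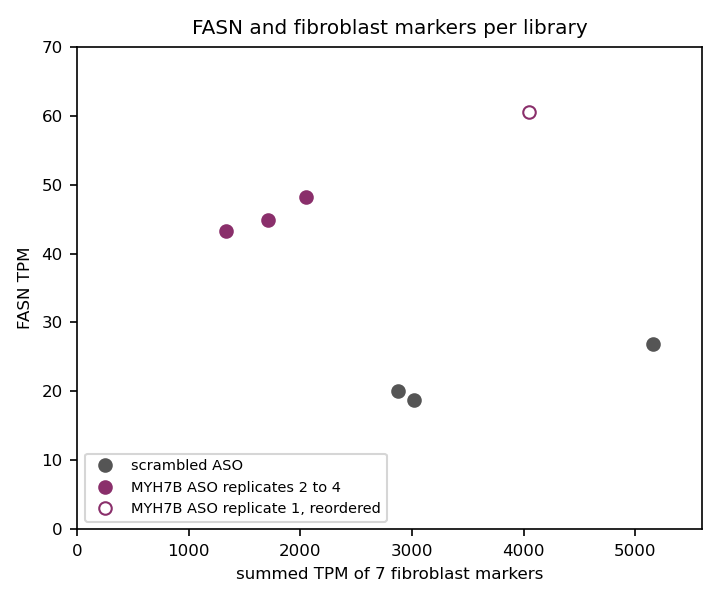
FASN TPM (vertical axis) against the summed TPM of 7 fibroblast markers (horizontal axis), 1 point per library. The 3 grey scrambled ASO points lie between 18.7 and 26.8 TPM of FASN, at 2874 to 5162 TPM of fibroblast markers. The 3 filled purple points of MYH7B ASO replicates 2 to 4 lie between 43.3 and 48.2 TPM of FASN, at 1332 to 2053 TPM of fibroblast markers. The open point of the reordered MYH7B ASO replicate 1 has 60.5 TPM of FASN at 4051 TPM of fibroblast markers.

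FASN also passed in the authors' deposited table, together with 2 further members. In the authors' deposited table the shrunken log2 fold change of FASN was 1.04 (SE 0.14, adjusted p = 1.4e-11). That table also passed TM7SF2 (0.60, adjusted p = 0.00283) and FADS2 (0.39, adjusted p = 0.0285), both higher, and no member lower. These 3 of 33 are close to the share of 8.71% over all genes with an adjusted p in the authors' deposited table. The count is therefore not a result about the members. Of those 15527 genes 469 passed as higher and 884 as lower. Both sources describe the same experiment, so one is not a replicate of the other. In 30 of 33 members the sign was the same in limma and in the authors' deposited table, and the exceptions were the small differences of SREBF1, ACAT2 and MSMO1.

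**Figure D3:**
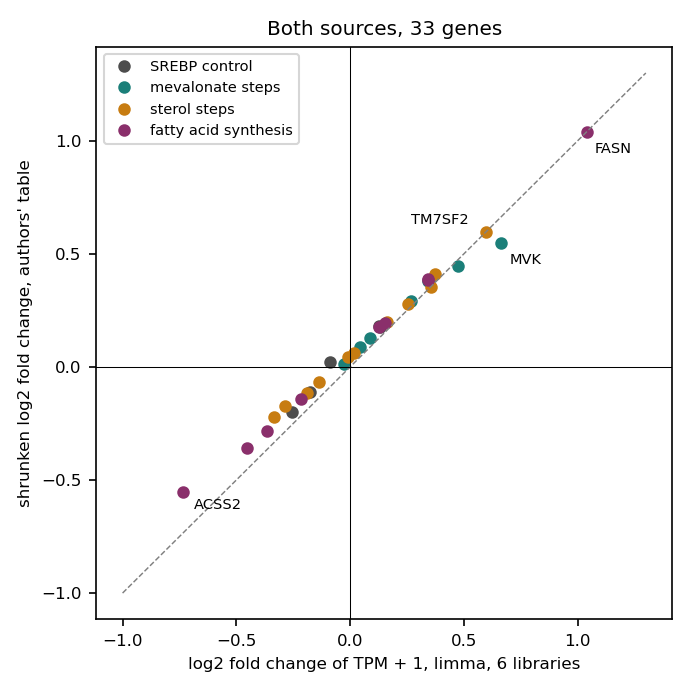
Shrunken log2 fold change in the authors' deposited table (vertical axis) against the limma log2 fold change of TPM + 1 over 6 libraries (horizontal axis) for the 33 genes, coloured by role, with the line of equality dashed. FASN stands alone at 1.04 on both axes, and ACSS2 is lowest at -0.73 and -0.55.

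The control genes of the SREBP system did not pass in either source. SREBF1 encodes SREBP-1 and SREBF2 encodes SREBP-2. SREBF1 had 20.6, 29.1 and 21.6 TPM in the control libraries and 34.7, 22.3 and 13.7 TPM in MYH7B ASO replicates 2 to 4, a spread within the treated group that covered the whole control range. Its log2 difference was -0.09 with a 95% interval of -0.79 to 0.62 (limma, adjusted p = 0.922), and it turned positive without scrambled ASO replicate 2 (0.060) or MYH7B ASO replicate 4 (0.24). SREBF2 had 47.5, 63.9 and 48.8 TPM against 55.7, 41.3 and 44.2 TPM, groups that overlapped. Its log2 difference was -0.18 with a 95% interval of -0.58 to 0.23 (limma, adjusted p = 0.677). SREBF2 was the more abundant of the pair in every library, at 2.20 to 2.31 times the TPM of SREBF1 with the scrambled ASO and 1.60 to 3.24 times with the MYH7B ASO.

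SCAP, the escort that carries SREBPs to the Golgi, had 24.6, 33.2 and 31.6 TPM against 34.4, 33.4 and 29.8 TPM. The groups overlapped, with a log2 difference of 0.13 (95% interval -0.24 to 0.50, limma adjusted p = 0.749). INSIG1, a retention protein whose gene is itself an SREBP target, had 14.4, 13.2 and 15.6 TPM against 22.5, 17.9 and 15.9 TPM. The INSIG1 groups just missed each other, and the log2 difference of 0.35 did not pass (95% interval -0.05 to 0.75, limma adjusted p = 0.397). The reordered replicate 1, at 12.9 TPM, lay below all scrambled ASO libraries. INSIG2, its less sterol-responsive relative, had 45.3, 29.2 and 24.7 TPM against 25.1, 29.3 and 25.7 TPM, so 1 scrambled ASO library set its higher control mean. The INSIG2 log2 difference was -0.25 (95% interval -0.76 to 0.26, limma adjusted p = 0.629). STARD4, a cytosolic sterol carrier, had 31.1, 37.7 and 30.5 TPM against 49.3, 28.2 and 33.7 TPM, with overlap (log2 difference 0.13, limma adjusted p = 0.825).

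**Figure D4:**
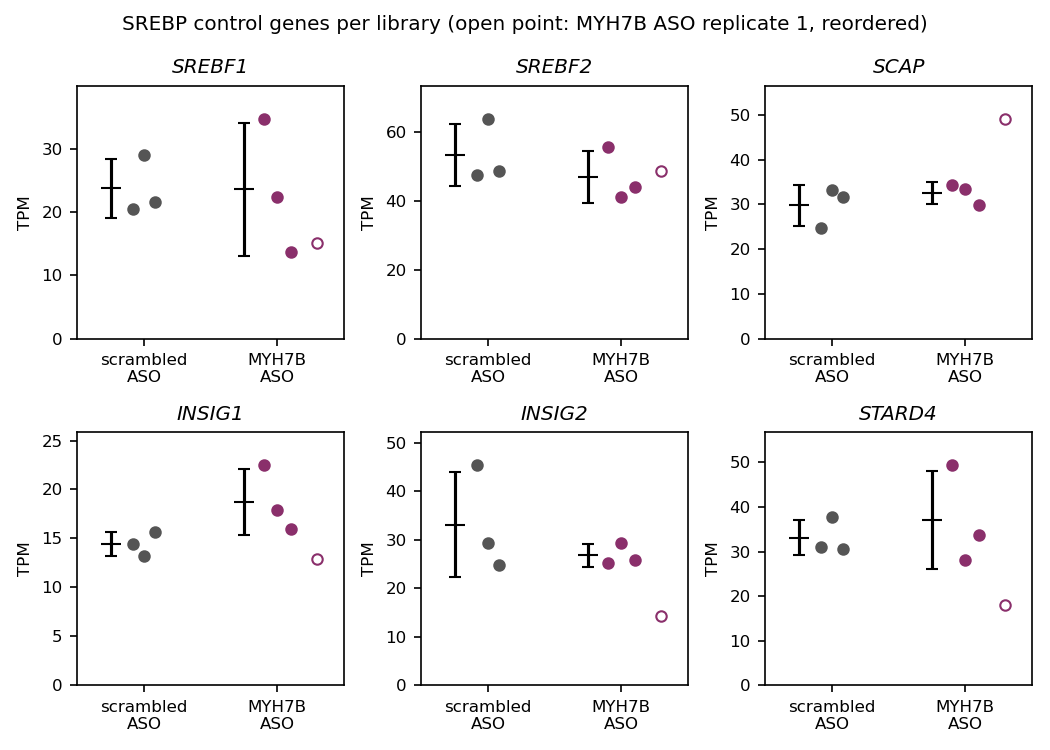
TPM per library (vertical axes, from 0) of the 6 SREBP control genes, with the mean and SD of the 3 filled points per group beside them and MYH7B ASO replicate 1 open. The groups overlap for every gene except INSIG1, whose filled points run from 13.2 to 15.6 and from 15.9 to 22.5 TPM.

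The mevalonate enzymes carry acetyl-CoA to farnesyl diphosphate. Of the 7, none was called and none had an unadjusted p under 0.05, and 6 had a positive difference, with a median log2 fold change of 0.27 beside -0.04 over all tested genes. The widest difference was that of MVK, mevalonate kinase, with 6.86, 6.24 and 14.1 TPM in the control libraries and 17.6, 12.5 and 12.7 TPM with the MYH7B ASO. Scrambled ASO replicate 3 lay among the treated values, and the log2 difference of 0.66 did not pass (limma, adjusted p = 0.333). MMAB overlaps MVK on the opposite strand. PMVK, the next kinase, differed by 0.48, MVD, the decarboxylase that follows, by 0.34, and IDI1, which isomerises the product, by 0.27, with limma adjusted p-values from 0.409 to 0.560. HMGCS1, which makes HMG-CoA, was at 41.3 ± 6.82 and 44.0 ± 7.35 TPM (SD, n = 3 each). FDPS, which makes farnesyl diphosphate, was at 53.3 ± 8.34 and 55.1 ± 8.63 TPM, and its groups overlapped. ACAT2, the thiolase at the head of the route, differed by -0.02, and its sign was positive after median-ratio or quantile scaling. ACAT2 overlaps TCP1 on the opposite strand, and with strand handling not stated, reads in the shared stretch cannot be told apart.

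The 11 sterol enzymes turn farnesyl diphosphate into cholesterol. None was called in limma, 6 had a positive and 5 a negative difference, and the median was 0.017. TM7SF2, a sterol C14 reductase of the lamin B receptor family, differed most. TM7SF2 had 52.9, 38.9 and 46.9 TPM in the control libraries and 74.1, 74.0 and 62.5 TPM in MYH7B ASO replicates 2 to 4. The groups did not overlap, and the log2 difference was 0.60 (SE 0.16, limma adjusted p = 0.122). The reordered replicate 1 had 183 TPM. TM7SF2 (ENSG00000149809.16, chromosome 11, 65111845 to 65116384, plus strand, GENCODE 29) overlaps VPS51 on the same strand, so reads in the shared stretch could be split between them. VPS51 had 82.6 to 122 TPM in the control libraries and 82.7 to 108 TPM in replicates 2 to 4, with a log2 difference of -0.16, and 186 TPM in the reordered replicate 1.

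CYP51A1, the lanosterol demethylase that precedes TM7SF2 in the route, had 27.4, 25.2 and 31.2 TPM against 36.8, 37.1 and 35.1 TPM. Its groups did not overlap either, with a log2 difference of 0.37 (limma, adjusted p = 0.266) and an adjusted p of 0.0504 in the authors' deposited table. The reordered replicate 1 stood at 21.0 TPM, below every scrambled ASO library, and with it the difference was 0.18. DHCR7, which turns 7-dehydrocholesterol into cholesterol, differed by 0.36 and FDFT1, squalene synthase, by 0.25, neither passing (limma, adjusted p = 0.431 and 0.560). LSS, which closes the sterol rings, differed by -0.34, SC5D, the C5 desaturase, by -0.29 and SQLE, squalene epoxidase, by -0.19, with overlapping groups. EBP, NSDHL, MSMO1 and HSD17B7, enzymes of the middle and late steps, had differences between -0.14 and 0.16, and that of MSMO1 (-0.0081) turned positive after median-ratio or quantile scaling or with mitochondrially encoded genes removed. The interval of HSD17B7 was wide (-0.84 to 0.87). Its libraries ran from 3.39 to 7.80 TPM with the scrambled ASO and from 3.41 to 9.77 TPM in MYH7B ASO replicates 2 to 4.

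The 9 fatty acid genes held the largest differences in both directions. FADS2 and FADS1 encode the delta-6 and delta-5 desaturases of polyunsaturated fatty acid synthesis. FADS2 had 63.0, 55.6 and 67.7 TPM in the control libraries and 79.7, 83.8 and 73.6 TPM with the MYH7B ASO. FADS1 had 37.9, 42.9 and 38.2 TPM against 55.6, 47.6 and 48.6 TPM. Neither gene's groups overlapped, yet with log2 differences of 0.34 each neither passed in limma (adjusted p = 0.279 and 0.289). The reordered replicate 1 had 99.1 TPM of FADS2 and 43.3 TPM of FADS1, the latter barely above the highest control. The 2 genes are close paralogs that overlap on opposite strands of chromosome 11, and FEN1 lies within FADS2, so their separate values are uncertain.

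ACSS2, which makes acetyl-CoA from acetate, had the lowest fold change of the 33. It had 37.9, 23.9 and 40.5 TPM in the control libraries and 19.2, 16.4 and 23.9 TPM with the MYH7B ASO, so that the closest pair of libraries, both 23.9 TPM, were separated only by a later decimal. Its log2 difference was -0.73 (SE 0.23, limma adjusted p = 0.185), and it was 16.4 TPM in the reordered replicate 1. ACSS2 (chromosome 20, 34872146 to 34927962, plus strand) ends 47440 bp before MYH7B, on the same strand. Between the 2 lies 1 protein-coding gene, GSS, and GGT7 overlaps ACSS2 on the opposite strand.

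None of the other 8 fatty acid genes was called in limma. ACLY, which makes acetyl-CoA from citrate, differed by -0.22 and ACACA, which makes the malonyl-CoA that FASN uses, by -0.37 (limma, adjusted p = 0.597 and 0.595). The ratio of FASN to ACACA TPM was 0.926, 1.08 and 2.37 in the control libraries and 3.03, 3.20 and 5.17 with the MYH7B ASO. FASN alone already separated the groups, so this ratio is not separate evidence. SCD, the stearoyl-CoA desaturase and the most abundant of the 9, was at 85.6 ± 7.96 and 93.4 ± 4.87 TPM (SD, n = 3 each), a log2 difference of 0.13 with a 95% interval of -0.17 to 0.42. ELOVL6, which lengthens palmitate, went from 11.9 ± 2.77 to 8.28 ± 0.47 TPM without passing (limma, adjusted p = 0.340). LPIN1, a phosphatidate phosphatase, differed by 0.15. The 9 genes summed to 306 to 331 TPM in the control libraries and to 334 to 360 TPM with the MYH7B ASO. Without FASN the sums overlapped, at 286 to 304 against 290.3 to 315 TPM.

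Over all 33 members, 20 differences were positive and 13 negative, against 45.2% positive among all tested genes, and the median was 0.13 beside -0.04. Of these signs, 31 were the same under 2 other scalings between libraries, 2 other pseudocounts and removal of mitochondrially encoded genes, the exceptions being ACAT2 and MSMO1. In the 6 fits that each left out 1 library only 25 signs held throughout, those of ACAT2, FDPS, HMGCS1, HSD17B7, LPIN1, MSMO1, SREBF1 and STARD4 turning at least once. With the 7 libraries HMGCS1, HSD17B7 and STARD4 turned. The groups did not overlap for 6 members that were higher (FASN, TM7SF2, FADS1, FADS2, CYP51A1 and INSIG1), where 7.11% of all tested genes were higher in this way. They did not overlap for 1 member that was lower (ACSS2), where 14.1% of all tested genes were. With the reordered replicate 1 included, CYP51A1 and INSIG1 overlapped and the other 5 did not.

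**Figure D5:**
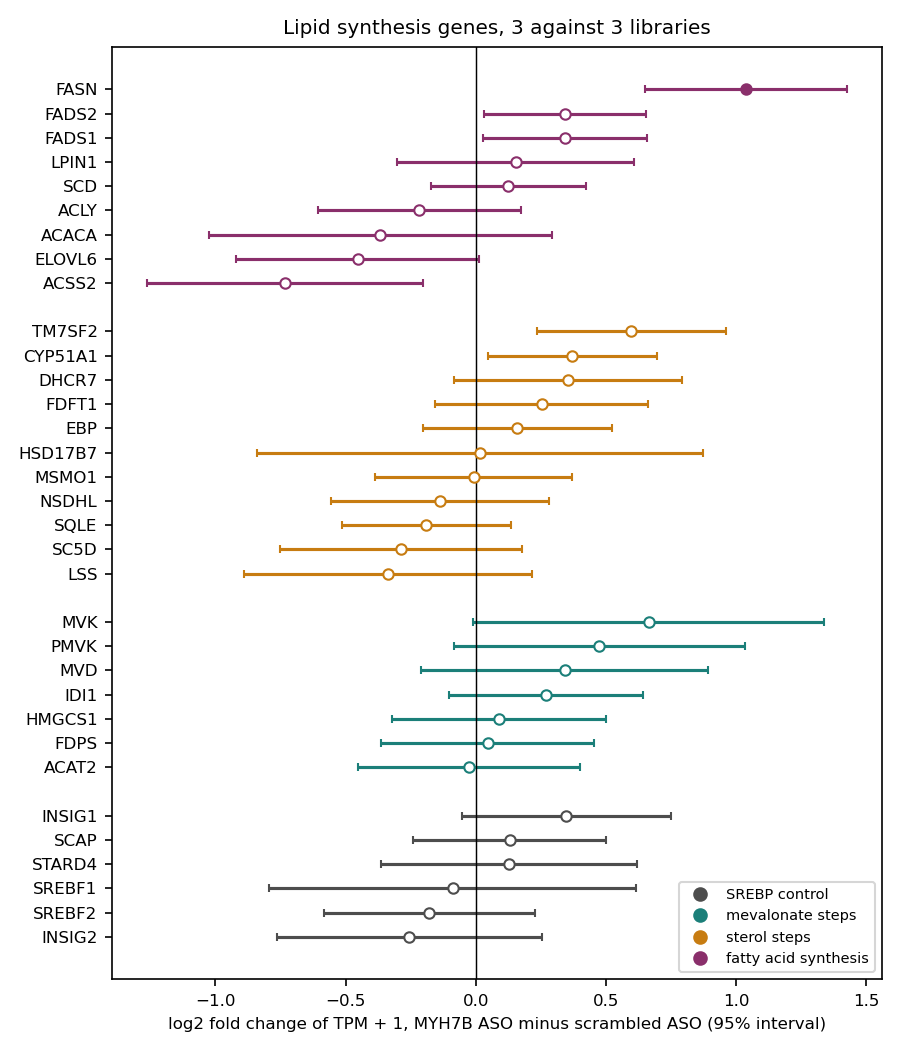
Log2 fold change of TPM + 1 (horizontal axis, MYH7B ASO minus scrambled ASO) with its 95% interval from limma for each of the 33 genes, grouped and coloured by role. The filled point is the call at an adjusted p under 0.05, FASN at 1.04, and the open points run from -0.73 for ACSS2 to 0.66 for MVK.

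Longer genes tended to have lower fold changes. The Spearman correlation between the genomic span of a gene and its log2 fold change was -0.40 over the 33 members and -0.31 over the 15852 tested genes with a span in GENCODE 29. These are descriptions across genes of the same libraries, and genes are not independent replicates. FASN spans 20000 bp and TM7SF2 4540 bp, whereas ACACA spans 321831 bp and ELOVL6 153354 bp. Members against the trend included LPIN1 (149815 bp), FADS2 (74375 bp), SCAP (63433 bp) and FDFT1 (43737 bp), with positive differences. They also included INSIG2 (22546 bp) and SC5D (16242 bp), with negative ones. FASN lies near the members' median span of 23787 bp. The part of span in these differences was not tested.

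Promoter windows were read for the members as the 250 bases before each start in the RefSeq table on GRCh38.p14. The table matched 29 of the 33 members, and it has no window for FASN. The windows were searched on both strands for TCACNCCAC (the sterol regulatory element bound by SREBPs), CCAAT (the NF-Y box), GGGCGG (the Sp1 box) and CACGTG (an E-box), which may overlap in part. Shown are TM7SF2 and FADS2, which passed in the authors' deposited table, and SREBF2, chosen after its match was seen. For FADS2 the start nearer to FADS1, 599 bp from it, is shown. Capitals mark the motifs on either strand, and all 3 windows are on the plus strand, at chr11:65111622-65111871, chr11:61816154-61816403 and chr22:41832855-41833104.
TM7SF2: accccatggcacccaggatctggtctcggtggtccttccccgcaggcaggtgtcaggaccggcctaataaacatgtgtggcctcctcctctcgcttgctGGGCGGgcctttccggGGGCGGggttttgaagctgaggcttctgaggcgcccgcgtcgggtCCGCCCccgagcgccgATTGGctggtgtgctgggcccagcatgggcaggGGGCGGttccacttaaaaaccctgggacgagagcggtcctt
FADS2: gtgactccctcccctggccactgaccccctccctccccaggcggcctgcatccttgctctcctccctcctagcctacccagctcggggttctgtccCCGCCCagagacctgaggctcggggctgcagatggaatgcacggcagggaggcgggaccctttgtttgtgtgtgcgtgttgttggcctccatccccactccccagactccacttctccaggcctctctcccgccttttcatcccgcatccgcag
SREBF2: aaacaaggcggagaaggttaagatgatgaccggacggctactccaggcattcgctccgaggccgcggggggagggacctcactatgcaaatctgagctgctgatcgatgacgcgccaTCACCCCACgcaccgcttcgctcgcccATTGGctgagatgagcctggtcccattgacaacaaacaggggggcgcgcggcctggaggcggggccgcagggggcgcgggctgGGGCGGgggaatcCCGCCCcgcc

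The sterol regulatory element in this spelling occurred in 1 of the 29 members, SREBF2, and in 1.09% of all gene symbols with a window. The TM7SF2 window held 4 Sp1 boxes and 1 NF-Y box, and the FADS2 window 1 Sp1 box. At least 1 CCAAT was found in 20 of 29 members, beside 37.0% of all symbols and 41.3% of the tested ones. GGGCGG was found in 28 of 29, beside 46.2% and 74.1%, and CACGTG in 3 of 29, beside 7.73% and 11.1%. These matches describe letters in short windows and do not locate a bound site.

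Neighbouring steps of lipid metabolism were followed in 6 further lists with 61 genes, of which 58 passed the filter on low values. None was called in limma, 7 had an unadjusted p under 0.05, and the authors' deposited table passed 2 as higher and 3 as lower. Of all 15988 tested genes 2435 had an unadjusted p under 0.05, and the 5 of 59 genes that passed in the authors' deposited table are close to its share of 8.71% over all genes, so the 5 are given as values and not as a result about these lists. Higher there were SLC25A1, the mitochondrial citrate carrier that supplies acetyl-CoA for lipid synthesis (0.50, adjusted p = 0.0418), and DGAT2, which makes triglyceride (0.75, adjusted p = 0.0155). DGAT2 had 5.64, 6.57 and 3.57 TPM in the control libraries and 13.2, 8.40 and 9.53 TPM with the MYH7B ASO, without overlap. Lower in the authors' deposited table were ABCA1, the cholesterol exporter (-0.85, adjusted p = 1.7e-05), PDSS2, which builds the ubiquinone side chain (-0.80, adjusted p = 0.00468), and ACACB, the mitochondrial acetyl-CoA carboxylase (-0.65, adjusted p = 0.0417). ABCA1 had 5.84, 7.46 and 8.41 TPM in the control libraries and 3.42, 3.87 and 3.23 TPM with the MYH7B ASO, a log2 difference of -0.86 (limma, adjusted p = 0.0911).

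By list, the median log2 fold changes were -0.071 for the 9 genes of SREBP processing and sterol-regulated degradation, 0.030 for 12 genes of sterol transport, storage and efflux, and -0.21 for 9 of the isoprenoid branch. They were -0.17 for 12 tested genes of the other elongases and desaturases, -0.024 for 8 tested genes of citrate and NADPH supply and lipogenic regulation, and 0.27 for 8 of glycerolipid synthesis. In the last list 5 of 8 differences were positive, against 2 of 9 in the isoprenoid branch and 4 of 12 in the other elongases and desaturases. Over all 6 lists 25 of 58 were positive, beside 45.2% of all tested genes.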

How the data were processed

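The authors deposited a table of TPM per gene and library. The submitters' processing notes name the build GRCh38.p13 and DESeq2, and the quantifier is not given in the sources used here. The authors' deposited comparison table gives per gene a p-value raw and adjusted, the statistic behind it (a score), a log2 fold change and SE, shrunken per the file name, and a mean normalized count (a signal). Which libraries entered it is not given in the sources used here.

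Genes averaging 1 TPM or more over the fitted libraries entered limma 3.58.1 (R 4.3.3, lmFit, then eBayes with trend) as log2(TPM + 1). Adjusted p-values are Benjamini-Hochberg over every gene tested. This scale understates the change of low genes. Called means an adjusted p under 0.05. Intervals are 95% and unadjusted. An exact permutation test of 3 against 3 libraries cannot go below 0.1 and was not run.

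The column of MYH7B ASO replicate 1 holds values in its first 58721 rows only. GENCODE 29 lists 58721 genes on the reference chromosomes. Assigning the values to those identifiers in sorted order raised its median correlation with the other libraries from 0.408 to 0.955. This order is inferred, so it enters only alternatives.

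Values per library, with the fold change and test, are given for members called in limma or passing in the authors' table and for SREBF1, SREBF2, SCAP, INSIG1 and INSIG2. Those of STARD4, CYP51A1, FADS1, MVK, ACSS2, DGAT2 and ABCA1 were added after they were seen. The members and lists were chosen with earlier results of these data known. The alternatives were other pseudocounts (0.1 and 5), filters, scalings, variance settings, replicate blocks, 7 libraries, and each library left out. Python 3.11.15, pandas 2.3.3, numpy 2.4.6, scipy 1.17.1 and matplotlib 3.10.9 were used.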

Additional observations from a re-analysis of the deposited data

Results flagged for a closer look

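In the 4 MYH7B ASO libraries, 34 genes (the 33 members and MYH7B) were checked for 1 library standing apart, which was so for 3 genes. Each time it was replicate 1, the reordered library. By chance about 1 in 20 genes would be flagged. The genes come from the same 4 libraries and are not independent, so this rate does not apply to 3 flags in 1 library. TM7SF2 was at 183 TPM there, against 62.5 to 74.1 TPM in the other 3. CYP51A1 was at 21.0 TPM, against 35.1 to 37.1 TPM. ACAT2 was at 7.20 TPM, against 11.3 to 11.8 TPM.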

How the results depend on the processing

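Called genes numbered 40 with no filter on low values, 150 without the intensity trend, 170 with 7 libraries and 53 to 149 when a library was left out, against 265. FASN, the 1 called member, was lost (0 members) with no filter (6 members at an unadjusted p under 0.05) or no trend (3). Leaving out a library gave 0 to 1 called members. MYH7B, at -1.85, missed the limma threshold with no filter (-1.85, adjusted p = 0.0779), with 7 libraries (-2.30) and without MYH7B ASO replicate 4, its range over fits without a library being -2.04 to -1.66. SREBF1 ran from -0.41 to 0.24 over those fits, reversing in 2.

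Same-numbered libraries had correlations of deviations of 0.076 and 0.11 over the 2 title pairs of the 6 libraries, 0.019, 0.14 and 0.021 over the 3 of the 7 libraries, and -0.073 and -0.039 over 2 description pairs of the 6, so the numbers were not taken as a pairing. With the replicate block by title number (6 and 7 libraries) or by description number, 0 genes and 0 members were called in limma, with 1718, 1773 and 1096 genes and 4, 6 and 1 members at an unadjusted p under 0.05. MYH7B was then -1.92, -2.41 and -2.17, and FASN missed the threshold with adjusted p = 0.372, 0.212 and 0.720. Under the title block over 6 libraries INSIG2 (0.014) and SREBF1 (0.15) reversed, and under the description block INSIG2 (0.031) and SCAP (-0.036). In these block fits a library without a same-numbered partner in the other group adds nothing to the difference. The fits therefore rest on those 2, 3 and 2 pairs, and little is left to estimate the spread. The part of this in the lost calls and reversed signs was not tested. The depth of the libraries is unknown.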
